A study of Mus musculus with 12 samples.

Results

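The transcription factors of the endoderm lineages were examined in cells of mouse liver cancer organoids: Nkx2-1, Foxa1, Foxa2, Foxa3, Hnf4a, Onecut2, Sox9 and Gata6. These 8 genes were chosen by name from the 47069 genes of the count table, as factors that mark liver, bile duct, lung or gut epithelium. The cells came from Lgr5-DTR-GFP mice of the C57BL/6 strain, in which green fluorescent protein and the diphtheria toxin receptor are made from the Lgr5 locus, and were sorted into LGR5+ and LGR5- populations by that reporter. The 4 groups of 3 libraries were untreated LGR5- cells, untreated LGR5+ cells, LGR5- cells after 5-FU and LGR5+ cells after 5-FU. 5-FU (5-fluorouracil) is a pyrimidine analog that blocks thymidylate synthesis, and the study's methods give its dose and schedule for a viability assay of organoids but not for the cells sequenced. Dead cells and CD45+ leucocytes were gated out in the study's sorts. The tumours of the study were induced with diethylnitrosamine, and the sources do not say how many tumours, organoid lines or cultures stand behind the 12 libraries, so P values measure only the spread between these libraries, which may be technical.

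Endoderm gives rise to the epithelium of the liver, bile ducts, lung, thyroid, pancreas and gut, and each organ is set up by its own combination of transcription factors. The Foxa proteins are forkhead factors that open closed chromatin early in the endoderm, and Gata6 acts beside them. Hnf4a is a nuclear receptor that maintains the hepatocyte program, Sox9 and Onecut2 belong to the duct and progenitor side of the liver, and Nkx2-1 is the homeodomain factor that specifies lung and thyroid and is not part of the normal liver program.

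The letters before the start sites of 4 members are shown first: Nkx2-1, a lung and thyroid factor read in every library, Hnf4a, a hepatocyte factor with almost no read, and Foxa1 and Foxa3, paralogs whose shares of the Foxa level are compared below. They are RefSeq windows on GRCm38, 5′ to 3′ on the gene's strand, cut to the bases outside annotated exons: Nkx2-1 at chr12:56536909-56537158 (minus strand), Foxa1 at chr12:57546122-57546361 (minus), Foxa3 at chr7:19023540-19023789 (minus) and both start sites of Hnf4a at chr2:163506607-163506807 and chr2:163546943-163547154 (plus). Capitals mark complete matches to the motifs searched.
Nkx2-1: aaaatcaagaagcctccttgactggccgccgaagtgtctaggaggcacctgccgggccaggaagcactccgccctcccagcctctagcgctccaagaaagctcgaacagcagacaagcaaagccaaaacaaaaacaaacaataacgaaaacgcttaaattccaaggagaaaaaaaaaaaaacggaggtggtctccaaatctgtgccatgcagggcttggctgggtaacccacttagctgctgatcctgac
Foxa1: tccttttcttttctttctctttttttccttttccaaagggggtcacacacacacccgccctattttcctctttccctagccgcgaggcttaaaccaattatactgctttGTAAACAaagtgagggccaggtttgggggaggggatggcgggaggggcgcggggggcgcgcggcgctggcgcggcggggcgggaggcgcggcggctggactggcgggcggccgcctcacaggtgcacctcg
Foxa3: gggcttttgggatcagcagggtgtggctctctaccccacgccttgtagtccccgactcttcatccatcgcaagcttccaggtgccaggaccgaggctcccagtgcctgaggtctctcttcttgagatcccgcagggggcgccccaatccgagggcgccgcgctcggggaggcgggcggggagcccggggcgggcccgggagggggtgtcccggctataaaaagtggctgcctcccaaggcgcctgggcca
Hnf4a, first start: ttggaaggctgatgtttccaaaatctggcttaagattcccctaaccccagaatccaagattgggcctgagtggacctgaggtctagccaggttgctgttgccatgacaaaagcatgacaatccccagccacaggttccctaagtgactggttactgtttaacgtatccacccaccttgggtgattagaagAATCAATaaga
Hnf4a, second start: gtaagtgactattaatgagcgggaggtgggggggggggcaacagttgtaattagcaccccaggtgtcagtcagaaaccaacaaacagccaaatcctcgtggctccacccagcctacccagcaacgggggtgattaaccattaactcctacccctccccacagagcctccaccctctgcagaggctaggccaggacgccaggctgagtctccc
Windows were found for 5 of the 8 members; Onecut2, Sox9 and Gata6 are named only. The motifs were searched on both strands of the 250 bases before each start. Among 32851 such windows, the FOXA motif TGTTTAC was present in 3.17%, the NKX2 motif TNAAGTG in 10.1%, the HNF4 motif CAAAGTCCA in 0.384%, the ONECUT motif ATTGATT in 2.61%, the GATA motif AGATAA in 9.99% and the SOX motif ACAATGG in 3.02%. The Foxa1 window held a FOXA match at position -141, counted from the start. The first Hnf4a window held an ONECUT match at position -60 and at position -52 a GATA match that runs into an annotated exon and is not in capitals. No motif was found in the windows of Nkx2-1, Foxa3 or the second Hnf4a start. Of the 3 windows of Foxa2, not shown, the first held an ONECUT match at position -213, the third a GATA match at position -183 and the other none. A match describes letters and not binding.

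The libraries held 13750591 to 19323514 counted reads, and levels are given as CPM, reads scaled to a common library total with TMM factors. A count of 0 still allows up to 3 reads, which come to 0.155 to 0.218 CPM by library total without TMM. This limit covers counting error only. The mitochondrial share of reads was 1.47% to 3.08% in 10 libraries, and 6.93% and 6.44% in LGR5- replicate 3 untreated and after 5-FU. Comparisons of the factors that turn on these 2 libraries are given with and without them. The profile distances, the Foxa shares and most genes of the lists are given with all 12 libraries only. Lgr5 itself did not separate the sorted populations: it stood at 28.8 ± 6.63 CPM in untreated LGR5- and 25.7 ± 2.12 CPM in untreated LGR5+ libraries (SD, n = 3), a log2 fold change of -0.17 (SE 0.23; edgeR, adjusted P = 1.0), and the log2 fold change after 5-FU was 0.11 (SE 0.23; adjusted P = 0.842). LGR5+ and LGR5- are therefore the labels of the sort and not levels of Lgr5 RNA.

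Of the 8 factors, 7 were read in all 12 libraries and Hnf4a was not. Each of the 7 had at least 32 reads in every library. Hnf4a had no read in 11 libraries and 2 reads in LGR5+ replicate 3 after 5-FU, which is under the limit of 3 reads, so no level is given for it and it was left out of the tests. Hnf4a lies at chr2:163506808-163572910 on the plus strand of GRCm38, with 13 exon blocks and 4828 bp of exon, and its antisense neighbour Hnf4aos had 5 reads in all.

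Levels of different genes were compared per kb of exon. Sox9 was the highest with a mean of 64.9 CPM per kb over the 12 libraries, followed by Nkx2-1 at 19.9, Foxa2 at 10.2, Foxa1 at 8.51, Gata6 at 4.90, Foxa3 at 3.08 and Onecut2 at 0.70 CPM per kb. Sox9 stood above Nkx2-1 and Nkx2-1 above Foxa2 in 12 of 12 libraries. Foxa2 and Foxa1 did not keep an order, with Foxa2 the higher per kb in 7 of 12 libraries. Foxa1 was above Gata6 in 11, Gata6 above Foxa3 in 12 and Foxa3 above Onecut2 in 11 of the 12 libraries. Gata6 depends on the length used: over its longest transcript of 3784 bp rather than its 6508 bp of exon it stood at 8.43 CPM per kb, beside 8.87 for Foxa1 on the same scale. Set against the 3-read limit of Hnf4a per kb in the same library, in the 11 libraries with no Hnf4a read, Nkx2-1 was at least 404-fold higher, Sox9 at least 837-fold and Onecut2, the lowest of the 7, at least 10.6-fold.

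**Figure D1:**
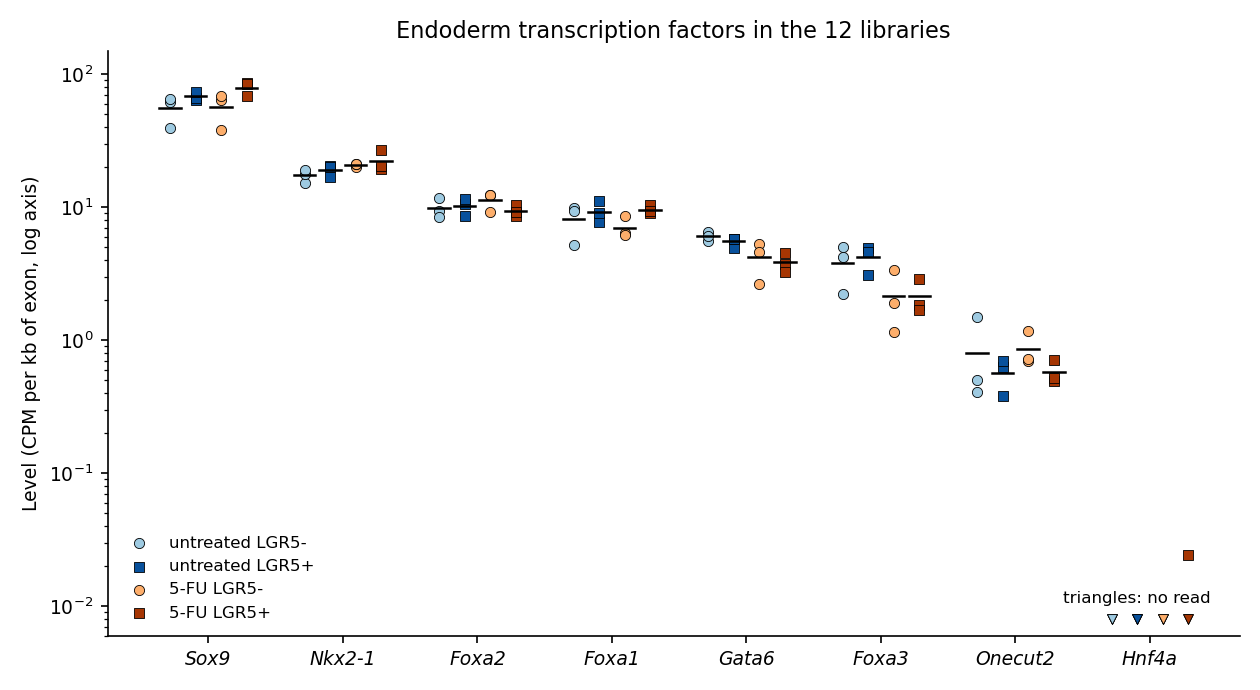
Level of each factor in each of the 12 libraries (CPM per kb of exon, log axis), by group, with the group mean as a bar where every library had reads; triangles mark libraries with no read, drawn at an arbitrary height. Sox9 and Nkx2-1 stand above the other factors, and Hnf4a shows 1 library with 2 reads.

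Nkx2-1, the lung and thyroid factor (ENSMUSG00000001496, chr12:56531958-56536908, minus strand, 3 exon blocks), had the smallest coefficient of variation of the 7 over the 12 libraries, 14.3%, next to 14.7% for Foxa2. It stood at 43.3, 50.9 and 53.7 CPM in untreated LGR5- replicates 1 to 3, at 47.6, 58.1 and 56.9 CPM in untreated LGR5+, at 56.6, 60.0 and 60.2 CPM in LGR5- after 5-FU and at 54.9, 76.3 and 58.5 CPM in LGR5+ after 5-FU. The 5-FU libraries of LGR5- cells lay above all 3 untreated ones, as they did for 13.7% of all genes tested, while those of LGR5+ cells overlapped. The log2 fold change after 5-FU was 0.26 (SE 0.17; 95% interval -0.11 to 0.62) in LGR5- and 0.22 (SE 0.17; interval -0.14 to 0.59) in LGR5+ cells, and neither passed the test (edgeR, adjusted P = 0.352 and 0.425). An antisense gene, Gm26973, overlaps Nkx2-1 on the other strand with no shared exon base, and stood at 14.6 to 30.3 CPM. Whether the authors' counting used strand is not given in the sources used here, so reads of the pair outside their exons cannot be assigned to one or the other.

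Among the 3 Foxa genes, Foxa1 and Foxa2 did not pass the test after 5-FU and the means of Foxa3 were lower. Foxa1 (chr12:57540628-57546916, minus strand) stood at 32.8, 30.9 and 17.4 CPM in untreated LGR5-, at 36.7, 25.8 and 30.1 CPM in untreated LGR5+, at 21.1, 28.3 and 20.7 CPM in LGR5- after 5-FU and at 30.02, 34.6 and 31.1 CPM in LGR5+ after 5-FU. Its lowest value was that of untreated LGR5- replicate 3, one of the libraries with a high mitochondrial share. Foxa2 (chr2:148042877-148046969, minus strand) lay between 19.9 and 29.2 CPM in all 12 libraries, and its groups overlapped in every comparison. The log2 fold changes after 5-FU in LGR5- and LGR5+ cells were -0.21 (SE 0.23) and 0.05 (SE 0.23) for Foxa1 and 0.20 (SE 0.19) and -0.12 (SE 0.19) for Foxa2. The Foxa1 value in LGR5- cells moved with single libraries, to -0.45 (SE 0.20; edgeR, adjusted P = 0.115) without untreated LGR5- replicate 3 and -0.0479 (SE 0.26; adjusted P = 0.935) without untreated LGR5- replicate 1, and was -0.37 (SE 0.20; adjusted P = 0.223) without both LGR5- replicates 3.

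Foxa3 (chr7:19013284-19023538, minus strand, 2 exon blocks, 2037 bp of exon) was the least abundant Foxa gene in each of the 12 libraries. It stood at 10.2, 8.56 and 4.55 CPM in untreated LGR5- and at 6.89, 3.86 and 2.35 CPM in LGR5- after 5-FU, groups that overlapped. In LGR5+ cells it stood at 10.1, 9.40 and 6.33 CPM untreated and at 5.85, 3.74 and 3.45 CPM after 5-FU, so that every treated library was below every untreated one, as for 20% of all genes tested. The reads behind these values numbered 32 to 175 per library, the fewest of the 7. The log2 fold change was -0.82 (SE 0.39; interval -1.66 to 0.01; edgeR, adjusted P = 0.178) in LGR5- and -0.99 (SE 0.39; interval -1.82 to -0.16; adjusted P = 0.101) in LGR5+ cells. In LGR5- cells the gene passed without untreated replicate 3 (-1.10; adjusted P = 0.0483) and without replicate 1 after 5-FU (-1.32; adjusted P = 0.0406), and had -0.49 (adjusted P = 0.485) without replicate 3 after 5-FU. Without both LGR5- replicates 3 it did not pass (-0.80, SE 0.34; adjusted P = 0.119). In LGR5+ cells it passed where both LGR5- replicates 3, which share the estimate of the spread, were left out of the fit (-0.99, SE 0.28; adjusted P = 0.0182), where the fit held only the LGR5+ libraries (-0.99, SE 0.27; adjusted P = 0.019) and with no filter on low counts (-1.01, SE 0.34; adjusted P = 0.0467).

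Gata6 (chr18:11052064-11085635, plus strand), the GATA factor of early endoderm, showed the same direction. It stood at 36.2, 42.2 and 39.8 CPM in untreated LGR5- and at 34.5, 30.04 and 17.2 CPM in LGR5- after 5-FU. In LGR5+ cells it stood at 32.3, 37.7 and 37.8 CPM untreated and at 29.6, 24.3 and 21.1 CPM after 5-FU. The treated and untreated libraries did not overlap in either population, with the treated ones lower as for 13.4% of all genes tested in LGR5- and 20% in LGR5+ cells. The log2 fold change was -0.53 (SE 0.22; interval -1.01 to -0.05; edgeR, adjusted P = 0.129) in LGR5- and -0.52 (SE 0.22; interval -1.001 to -0.05; adjusted P = 0.128) in LGR5+ cells. The lowest library, LGR5- replicate 3 after 5-FU, is the one with a mitochondrial share of 6.44%. Without both LGR5- replicates 3 the log2 fold change was -0.28 (SE 0.19; adjusted P = 0.325) in LGR5- and -0.53 (SE 0.15; adjusted P = 0.0203) in LGR5+ cells. With only the LGR5+ libraries in the fit it was -0.53 (SE 0.16; adjusted P = 0.0322). A gene of the other strand, 1010001N08Rik, shares 93 exon bases with Gata6 and had 66 reads in all libraries, against 235 to 769 reads for Gata6 in each.

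In the fit of all 12 libraries, over 16157 genes tested, these values were not calls. There edgeR passed none of the 7 factors tested at an adjusted P of 0.05 after 5-FU in LGR5- cells, where 15.4% of all genes passed, or in LGR5+ cells, where 16% did. At an unadjusted P under 0.05, 1 factor (Gata6) was lower in LGR5- cells and 2 (Foxa3 and Gata6) in LGR5+ cells, beside 14.7% and 13.9% of all genes lower at that limit. DESeq2 called none of the 7 in either, beside 16.4% of all genes in LGR5- and 17.2% in LGR5+ cells. By the limits of the study's methods, an absolute log2 fold change over 1.5 at an unadjusted P under 0.05, none of the 7 was called in LGR5- cells, beside 7% of all genes, or in LGR5+ cells, beside 7.23%. Groups did not overlap for 1 factor lower (Gata6) and 1 higher (Nkx2-1) in LGR5- cells, where 13.4% and 13.7% of all genes did so, and for 2 factors lower in LGR5+ cells, where 20% of all genes did so. The median absolute log2 fold change of the 7 was 0.21 in LGR5- and 0.22 in LGR5+ cells, against 0.39 and 0.40 over all genes tested. The difference between the 5-FU responses of the 2 populations passed the edgeR test for none of the 7 and for 0% of all genes; at an unadjusted P under 0.05 it held 0 of the 7 and 1.57% of all genes, and DESeq2 called none of the 7 and 0% of all genes. For Foxa3 that difference was -0.16 (SE 0.55) and for Gata6 0.01 (SE 0.32) on the log2 scale.

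Since the populations gave like values, a contrast chosen after seeing them averaged the 5-FU response over both. With the 12 libraries taken as independent, Foxa3 passed as lower, with a log2 fold change of -0.91 (SE 0.27; interval -1.49 to -0.32), to 0.534 of the untreated level (edgeR, adjusted P = 0.0216), and Gata6 passed as lower, with -0.53 (SE 0.16; interval -0.86 to -0.19), to 0.694 of it (adjusted P = 0.0201). These 2 of 7 compare with 30.2% of all genes called in that contrast, and 14.6% of all genes called lower. The treated LGR5- and LGR5+ libraries of 1 number deviated together, however, and with the reads of the LGR5- and LGR5+ libraries of each number and treatment summed to 1 sample, 3 against 3, neither gene passed: Foxa3 had -0.91 (SE 0.32; edgeR, adjusted P = 0.0677) and Gata6 -0.53 (SE 0.19; adjusted P = 0.0688). Over 20 alternatives the log2 fold change ran from -1.15 to -0.74 for Foxa3, which passed in 14, and from -0.63 to -0.39 for Gata6, which passed in 16. Without LGR5+ replicate 2 or replicate 3 after 5-FU neither gene passed (adjusted P = 0.0581 and 0.0613 for Foxa3, 0.0539 and 0.0639 for Gata6). Foxa3 also did not pass without untreated LGR5- replicate 1 (0.0565), untreated LGR5+ replicate 1 (0.0523) or LGR5- replicate 2 after 5-FU (0.0509), nor Gata6 without untreated LGR5+ replicate 3 (0.0522). Without both LGR5- replicates 3 both passed, with -0.90 (SE 0.22; adjusted P = 0.00592) for Foxa3 and -0.40 (SE 0.12; adjusted P = 0.0177) for Gata6. The other 5 factors did not pass, the nearest being Nkx2-1 at 0.24 (SE 0.12; adjusted P = 0.151).

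**Figure D2:**
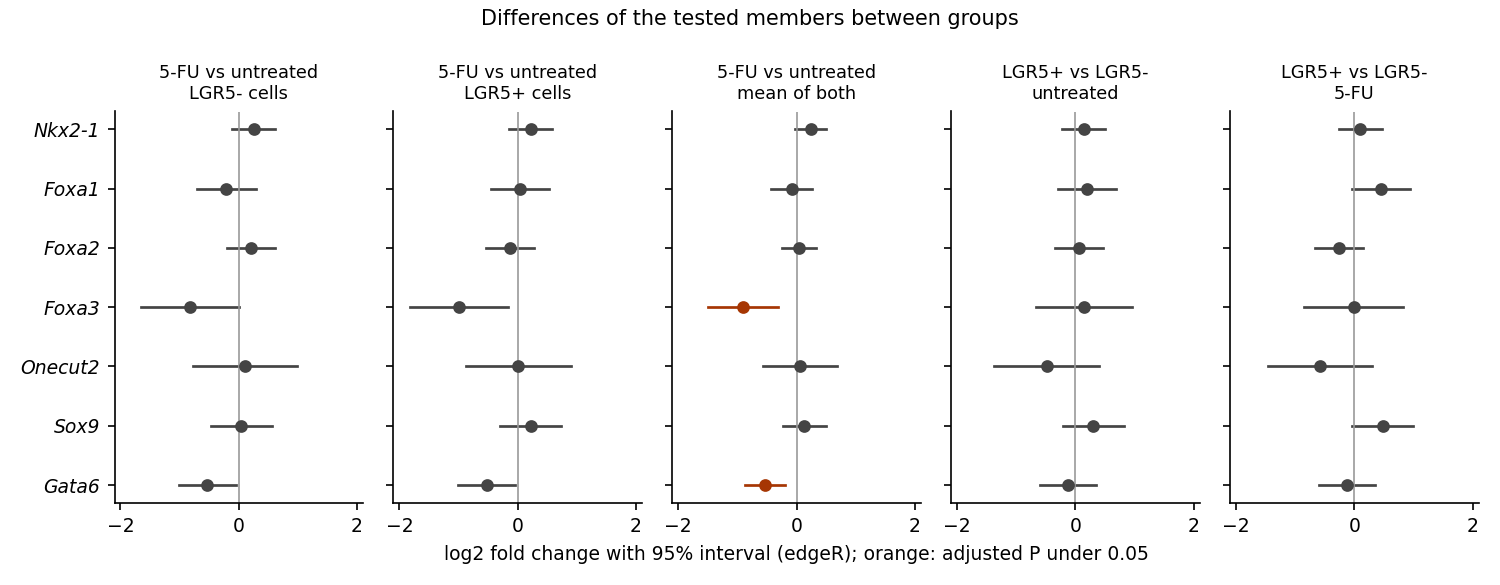
Log2 fold change of the 7 tested factors with its 95% interval (lines) in 5 comparisons, from 1 edgeR fit of all 12 libraries. Intervals for Foxa3 and Gata6 lie below 0 in the contrast averaged over both populations, where orange marks, with the 12 libraries taken as independent, an adjusted P under 0.05, and those of the other 5 factors include 0 in every panel.

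The mix of Foxa transcripts was also compared within each library, where scaling cancels. Of the summed Foxa level per kb, Foxa3 made up 17.2 ± 3.36% in untreated LGR5- and 17.7 ± 2.30% in untreated LGR5+ cells, and 10.2 ± 4.49% and 10.02 ± 2.48% after 5-FU (SD, n = 3). In LGR5+ cells the treated shares, at most 12.9%, were all below the untreated ones, at least 15.0%. LGR5- replicate 1 after 5-FU, at 15.4%, lay inside the untreated range of 14.1% to 20.8%. The mean difference was -7.30 percentage points, with a two-sided exact permutation P = 0.01 when treatment labels were exchanged within each population (400 relabellings, the smallest possible P being 0.005), a test chosen after seeing the values. That test takes the libraries as independent, while the treated LGR5- and LGR5+ libraries of 1 number deviated together. With the LGR5- and LGR5+ libraries of 1 number and treatment exchanged together, the exact permutation P was 0.1, the smallest that 20 relabellings allow, so this design cannot reach 0.05. The Foxa2 share, 5.24 percentage points higher after 5-FU, had the same exact permutation P of 0.1 there, and that of Foxa1 0.6. The shares of Foxa1 (P = 0.535) and Foxa2 (P = 0.095) did not pass the exact permutation test within populations. A share within a library shows unequal change among the Foxa genes and not which of them changed.

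**Figure D3:**
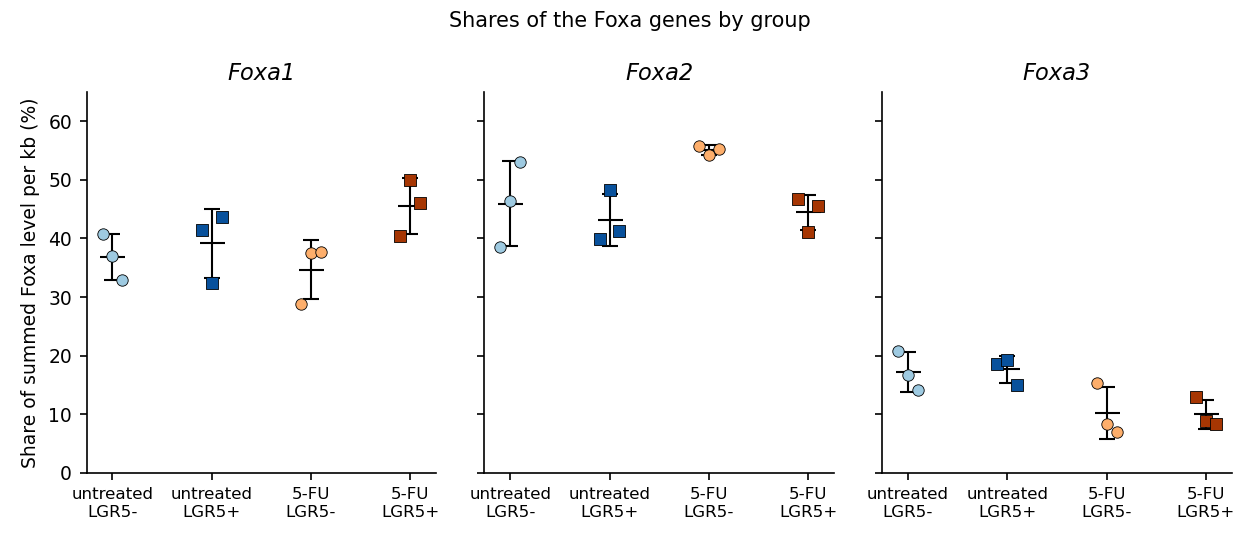
Share of each Foxa gene in the summed CPM per kb of Foxa1, Foxa2 and Foxa3 (%), by group, with a point per library and the mean ± SD (n = 3). Foxa3 goes from means of 17.2% and 17.7% in the untreated groups to 10.2% and 10.02% after 5-FU, with 1 treated LGR5- library at 15.4%.

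Sox9, the factor of duct cells and liver progenitors (chr11:112782224-112787760, plus strand), was higher in LGR5+ than in LGR5- means without passing the test. It stood at 253, 268 and 164 CPM in untreated LGR5-, at 266, 273 and 306 CPM in untreated LGR5+, at 264, 285 and 158 CPM in LGR5- after 5-FU and at 355, 347 and 283 CPM in LGR5+ after 5-FU. The lowest values, 164 and 158 CPM, are those of LGR5- replicate 3, the libraries with mitochondrial shares of 6.93% and 6.44%. LGR5+ against LGR5- cells gave a log2 fold change of 0.30 (SE 0.24; edgeR, adjusted P = 1.0) untreated and 0.48 (SE 0.24; interval -0.04 to 0.99; adjusted P = 0.402) after 5-FU. Without both LGR5- replicates 3 these were 0.11 (SE 0.15; adjusted P = 0.914) and 0.25 (SE 0.15; adjusted P = 0.57). The response of Sox9 to 5-FU was 0.05 (SE 0.24) in LGR5- and 0.22 (SE 0.24) in LGR5+ cells.

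Onecut2, a factor shared by liver and bile duct (chr18:64340020-64400987, plus strand, 16234 bp of exon), varied most over the 12 libraries, with a coefficient of variation of 46.1%. It stood at 6.67, 8.12 and 24.1 CPM in untreated LGR5-, at 6.18, 10.3 and 11.3 CPM in untreated LGR5+, at 11.2, 11.7 and 19.1 CPM in LGR5- after 5-FU and at 8.04, 11.4 and 8.48 CPM in LGR5+ after 5-FU. LGR5- replicate 3 was the highest library in both treatments, the reverse of Sox9. The 5-FU response in LGR5- cells was 0.10 (SE 0.41; edgeR, adjusted P = 0.902) with all libraries, 0.91 (SE 0.31; adjusted P = 0.0471) without untreated LGR5- replicate 3, -0.15 (SE 0.45; adjusted P = 0.888) without replicate 3 after 5-FU, and 0.63 (SE 0.29; adjusted P = 0.147) without both. In LGR5+ cells the response was 0.01 (SE 0.41).

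Between LGR5+ and LGR5- cells no factor passed the test in either treatment. No gene of the 16157 was called by edgeR in these comparisons (0%). At an unadjusted P under 0.05 there were 0 of 7 factors in both, beside 1.32% of all genes untreated and 13% after 5-FU, and DESeq2 called none of the 7 in either, beside 0% of all genes untreated and 0.513% after 5-FU. After 5-FU every LGR5+ library was above every LGR5- library for Foxa1, as for 14.2% of all genes, with a log2 fold change of 0.45 (SE 0.23; interval -0.05 to 0.94; adjusted P = 0.407). For Nkx2-1 the interval of the difference ran from -0.23 to 0.50 untreated and from -0.26 to 0.47 after 5-FU on the log2 scale. Since these are pools of sorted cells, fewer cells of a type and less RNA per cell cannot be told apart.

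The relatives of the factors were mostly silent. Of 12 paralogs, 8 had at most 3 reads in every library, among them Gata4 with 4 reads in all 12 libraries together, Onecut1 with 3, and Nkx2-2 and Nkx2-3 with none; Hnf4g, the relative of Hnf4a, had 27. The exception was Nkx2-9, a homeodomain gene 74.5 kb from Nkx2-1 (chr12:56611389-56613284). It stood at 2.70 ± 0.34 CPM in untreated LGR5-, 4.61 ± 0.80 CPM in untreated LGR5+, 20.1 ± 3.70 CPM in LGR5- after 5-FU and 26.8 ± 3.51 CPM in LGR5+ after 5-FU (SD, n = 3). All 6 treated libraries, with 243 to 526 reads, were above all 6 untreated ones, with 43 to 85. The log2 fold change was 2.89 (SE 0.22; edgeR, adjusted P = 3.39e-06) in LGR5- and 2.54 (SE 0.21; adjusted P = 4.31e-06) in LGR5+ cells, beside 0.26 and 0.22 for Nkx2-1. Sox8, the other paralog tested, stood at a mean of 0.896 CPM.

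Other factors of the endoderm organs were counted from lists. Of 12 lung factors, all tested, 1 rose and 2 fell after 5-FU in LGR5- cells and 2 rose and 2 fell in LGR5+ cells (8.3% of all genes rose and 7.11% fell in LGR5- cells, 9.66% and 6.37% in LGR5+ cells). Hopx, a mark of alveolar type 1 and other differentiating cells, rose in both, by a log2 fold change of 1.35 (SE 0.21) and 1.10 (SE 0.21). Etv4, an ETS factor of growing lung tips, fell by 1.01 and 1.24, and Elf5 fell by 1.19 and 1.24 on the log2 scale. Foxj1, the factor of ciliated cells, was at or under 18 reads throughout and passed in LGR5+ cells. The most abundant of the list, Id2 at 1056, Etv5 at 358 and Klf5 at 254 CPM on average, did not pass in either population.

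Of 15 liver factors, 7 had enough reads to be tested. None changed in LGR5- cells by edgeR, and in LGR5+ cells Cebpb (log2 fold change 0.66, SE 0.19) and Rxra (1.12, SE 0.26) rose and Prox1 (-0.80, SE 0.22) fell; in LGR5- cells 3 of the 7 had an unadjusted P under 0.05, beside 28.7% of all genes. Of these, Cebpb (0.56, SE 0.19) and Rxra (0.59, SE 0.26) passed without both LGR5- replicates 3 (0.60 and 0.82; edgeR, adjusted P = 0.0476 and 0.0212), while Nr1h4, the bile acid receptor, had -0.98 (SE 0.45; adjusted P = 0.166) with them and -0.45 (SE 0.43; adjusted P = 0.523) without. Prox1 averaged 40.7 and Tbx3 32.0 CPM. Of 6 bile duct factors 5 were tested, and the Notch target Hes1 (1.36, SE 0.26, in LGR5- and 0.93, SE 0.25, in LGR5+ cells) and Klf6 (1.56, SE 0.24, and 1.85, SE 0.24) rose in both populations; Sox4 averaged 101 CPM and did not pass. Of 14 gut and pancreas factors 7 had no read in any library and 4 were tested. Sox17, of early endoderm, fell in LGR5- cells by 2.21 on the log2 scale (SE 0.66), and had -1.80 (SE 0.64; adjusted P = 0.072) in LGR5+ cells, while Pdx1 and Sox21 stood at 2.17 and 2.83 CPM and did not pass. Of 8 squamous factors 7 were tested, and Grhl3 (1.65, SE 0.22, and 2.002, SE 0.22) and Klf4 (1.84, SE 0.27, and 1.73, SE 0.27) rose in both populations while Tfap2c, at 19.7 CPM, did not pass.

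Markers of several cell types were read beside the label of liver cancer. By protein staining, the study divides its organoids into 2 types. A hepatocellular carcinoma-like type has HNF4α or AFP, and a cholangiocarcinoma-like type has EpCAM or CK19, the protein of Krt19. Which type the sequenced cells came from is not given in the study's methods. Of 12 hepatocyte markers, 6 had at most 3 reads in every library and 3 of them (Fga, Fgb and G6pc) had none, and albumin (Alb) averaged 0.855 CPM; only Trf and Afp, at 27.1 and 28.8 CPM, had more than 3 reads in all 12 libraries. The hepatocyte list summed to 39.8 to 89.3 CPM, and Afp rose after 5-FU in both populations while the other 3 tested did not pass. Of 8 bile duct markers, 6 had more than 3 reads in all libraries, with Krt7 at 2066, Krt19 at 1633 and Epcam at 1289 CPM on average. These are genes of many epithelia; Spp1 stood at 9.74 CPM, Cftr had 67 reads and the secretin receptor gene Sctr 6 reads over all 12 libraries. The bile duct list summed to 2312 to 2919 CPM in untreated and 3656 to 12330 CPM in treated libraries. Of the 6 tested, 4 rose in both populations, Krt19, Krt7 and Cldn4 among them, beside 8.3% of all genes in LGR5- and 9.66% in LGR5+ cells. Epcam went the other way without passing, with -0.50 (SE 0.23; edgeR, adjusted P = 0.164) in LGR5- and -0.13 (SE 0.23; adjusted P = 0.745) in LGR5+ cells. Of 9 markers of alveolar type 2 cells, the surfactant-making cells of the lung, 8 had more than 3 reads in all libraries, with Sftpc, a surfactant protein gene and target of Nkx2-1, at 7665 CPM on average. That list summed to 3545 to 17510 CPM in untreated and 3075 to 6455 CPM in treated libraries, nearly all of it Sftpc. Its log2 fold change after 5-FU was -1.26 (SE 0.55; edgeR, adjusted P = 0.147) in LGR5- and -1.03 (SE 0.55; adjusted P = 0.228) in LGR5+ cells, and without both LGR5- replicates 3 it passed in LGR5- cells (-1.82, SE 0.54; adjusted P = 0.0422). In the averaged contrast, where Foxa3 and Gata6 passed as lower, Sftpc did too (-1.15, SE 0.39; adjusted P = 0.0378), and like them it did not pass with the libraries of each number summed (-1.19, SE 0.44; adjusted P = 0.0874); its part in their values was not tested. Of the 9 alveolar type 2 markers, 2 rose in LGR5- cells, Sftpd (log2 fold change 2.48) and Napsa (1.51), beside 8.3% of all genes. In LGR5+ cells 3 rose, Sftpd (2.69), Slc34a2 (1.27) and Lamp3 (1.19), beside 9.66% of all genes.

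The 5 thyroid markers summed to 1.17 to 3.75 CPM in untreated and 5.39 to 8.95 CPM in treated libraries, and 1 of the 2 tested, the thyrotropin receptor gene Tshr, rose in both populations, from means of at most 0.138 CPM to 3.74 CPM in LGR5- and 5.36 CPM in LGR5+ cells. The 5 airway markers summed to 14.3 to 58.7 CPM in untreated and 104.5 to 505 CPM in treated libraries. Most of the mean sum after 5-FU was Krt5, at 121 CPM in LGR5- and 344 CPM in LGR5+ cells. Scgb1a1 averaged 28.2 and 50.7 CPM there, while Scgb3a2 had 3 reads and Muc5b 30 over all 12 libraries. Of the 3 tested, 2 rose in each population, Krt5 in both, Scgb1a1 in LGR5- and Foxj1 in LGR5+ cells. For the lists of this paragraph, the share of all genes that rose was 8.3% in LGR5- and 9.66% in LGR5+ cells. The 6 leukocyte markers summed to 6.41 to 14.1 CPM untreated and 17.2 to 54.7 CPM after 5-FU, nearly all of it Cd68, which rose in both, while Cd3e had no read and Ptprc averaged 0.637 CPM. Endothelial markers (4 genes) summed to at most 4.06 CPM and fibroblast markers (5 genes) to 23.9 to 59.3 CPM, nearly all of it Dcn; 1 gene of each was tested and did not pass. The bile duct, thyroid, airway and leukocyte sums were higher in all treated libraries than in all untreated ones, the same libraries in which Foxa3 and Gata6 had lower means, and their part in that result was not tested.

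**Figure D4:**
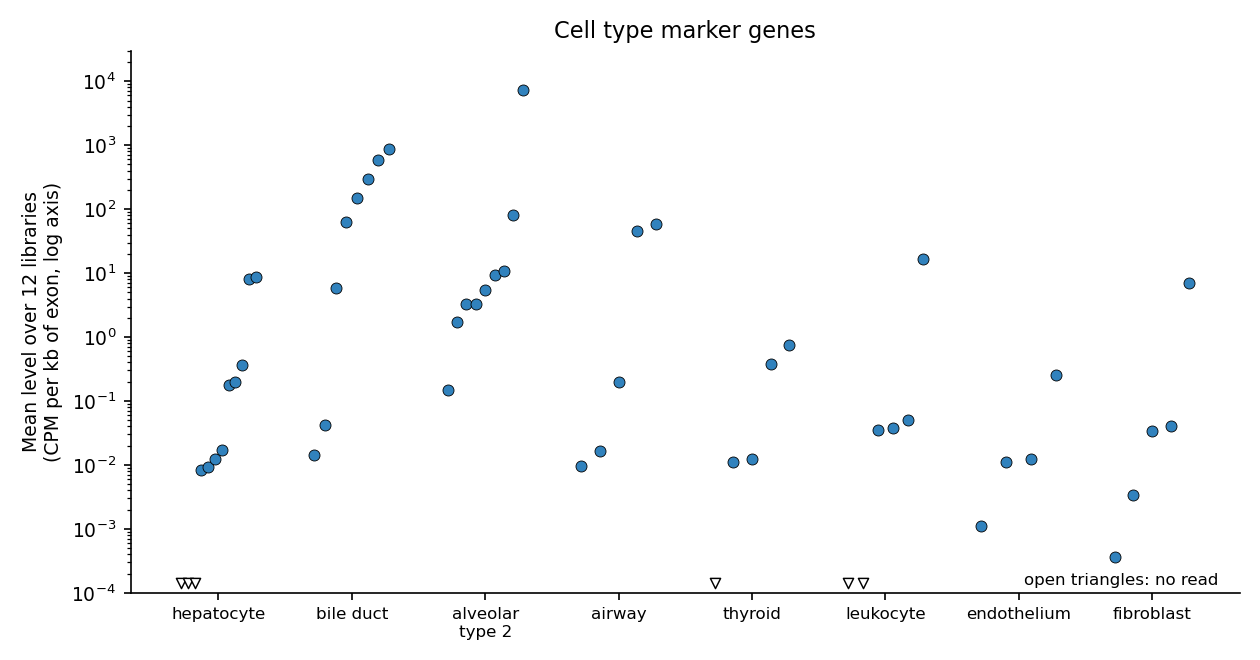
Mean level over the 12 libraries of each marker gene (CPM per kb of exon, log axis), 1 point per gene in rising order within its cell type; open triangles are genes with no read, drawn at an arbitrary height. Markers of bile duct and of alveolar type 2 cells reach the highest levels, and those of hepatocytes reach at most 8.55 CPM per kb.

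For each factor read in all libraries the genes with the most similar profile were found, as the mean absolute difference of centred log2 CPM over the 12 libraries among 16087 genes with a symbol. For Nkx2-1 the nearest was Foxp1, a forkhead factor of the lung list, at 0.0676, followed by Timmdc1 and Resf1, against a median of 0.371 over all genes. Foxa1 was nearest to Bub3 (0.071), Tyw1 and 1810055G02Rik, Foxa2 to Pak2 (0.0988), Dcaf5 and Pgls, and Foxa3 to Gm6793 (0.138), Eef1a1 and Ptma. Onecut2 was nearest to Arhgef25 (0.0889), Zcchc7 and Gm38125, Sox9 to Gnai2 (0.0693), Ap3b1 and Cat, and Gata6 to Eml4 (0.0925), Safb and Egfl7. Among the factors themselves the closest pair was Foxa1 and Sox9 at 0.195, and Foxa3 was closer to Gata6, at 0.354, than to Foxa2, at 0.492, or Foxa1, at 0.544. Many other genes were nearer: Sox9 ranked 1229 for Foxa1 and Foxa1 752 for Sox9, and Gata6 ranked 865 for Foxa3 and Foxa3 4868 for Gata6. Foxa1 (17.4 and 20.7 CPM) and Sox9 (164 and 158 CPM) both had their lowest values in the LGR5- replicates 3. The distances were not computed without these libraries.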

How the data were processed

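The authors deposited 1 table of whole-number read counts for 47069 Ensembl genes in 12 libraries, without normalization. RNA from sorted cells was amplified with a SMART-Seq kit per the labels (a SMARTer kit per the study's methods) and sequenced as paired-end 150-bp reads. The submitters' processing notes name HISAT2, HISAT, TopHat2 and HTSeq and the build mm8, with no version or role. Of the identifiers, 46574 occur in the GENCODE M21 annotation of GRCm38, from which symbols (46488 identifiers; 581 had none), lengths and positions were taken; they may differ from the gene models counted. Groups and replicate numbers come from the sample titles and the series design.

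Counts were filtered by filterByExpr (16157 genes kept), scaled by TMM and fitted with 1 mean per group by edgeR 4.0.16 (robust quasi-likelihood, R 4.3.3), with Benjamini-Hochberg adjustment over all genes tested and a call at an adjusted P under 0.05. Standard errors were derived from the log2 fold change and its F statistic. CPM per kb divides by the union of annotated exons. Profiles used log2 CPM with a prior count of 2. Motif letters were written from general knowledge. The fit was tested on simulated data.

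The members and the gene lists were chosen with earlier results of these data known. Beside the members and their paralogs, the genes named from each list were the 3 with the highest mean CPM and the 2 with the smallest P in each 5-FU comparison; marker genes and further genes of the lists were named after their values were seen. Some genes of the lists enter the counts and sums and are not reported here by name. Alternatives were a minimum of 10 reads per library, no filter, RLE size factors, library size only, DESeq2 1.42.0, only the libraries compared, the replicate block and each library left out. Leaving out both LGR5- replicates 3, the averaged contrast, its fit on reads summed over the LGR5- and LGR5+ libraries of each number and treatment, and the Foxa share tests were added after seeing the data. No 2 libraries agreed within sampling noise (chi-square per degree of freedom at least 4.42). Replicate numbers paired the 5-FU LGR5- and LGR5+ libraries, whose deviations from the group means correlated at 0.571, 0.217 and 0.304 for numbers 1 to 3, and no other pair of groups.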

Additional observations from a re-analysis of the deposited data

How the results depend on the processing

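The 7 factors present in every library, and the place of each by level per kb, stayed the same with a limit of 10 reads and with the longest transcript as length. After 5-FU in LGR5- cells the replicate block called 1 factor (Foxa3, -0.87; edgeR, adjusted P = 0.029), and leaving out single libraries gave 0 to 2 calls. In LGR5+ cells 1 factor was called with no filter (Foxa3, adjusted P = 0.0467) and with the replicate block (Foxa3, -0.998; adjusted P = 0.0129), and 2 (Foxa3 and Gata6) when the fit held only the libraries compared or left out both LGR5- replicates 3. The averaged contrast gave 0 to 2 calls when single libraries were left out, and 0 when the LGR5- and LGR5+ libraries of 1 number were summed. Replicate numbers are only shared names between treated and untreated libraries; the block changed no other call of a factor. In the pair of groups they do pair, LGR5+ against LGR5- after 5-FU, the block turned Foxa3 to 0.0633.

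Signs turned for values that passed no test in either setting: with library size only, Foxa1 (-0.0319) and Onecut2 (-0.0752) after 5-FU in LGR5+ cells and Onecut2 in the averaged contrast (-0.0108); Onecut2 in LGR5+ cells with no filter (-0.015) and with at least 10 reads (-0.0016); without both LGR5- replicates 3, LGR5+ against LGR5- untreated for Foxa1 (-0.0469), Foxa2 (-0.0358), Foxa3 (-0.12) and Onecut2 (0.32). The difference between responses for Gata6 turned with no filter (-0.0528), at least 10 reads (-0.0191), RLE (-0.0169), library size only (-0.11), DESeq2 (-0.0128) and without both LGR5- replicates 3 (-0.24). The causes were not tested.

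Leaving out single libraries turned these signs, over ranges of the log2 fold change. After 5-FU in LGR5- cells, Onecut2 ran from -0.21 to 0.91 and Sox9 from -0.15 to 0.30. After 5-FU in LGR5+ cells, Foxa1 ran from -0.0651 to 0.20 and Onecut2 from -0.21 to 0.19. For LGR5+ against LGR5- untreated, Foxa1 ran from -0.0468 to 0.36, Foxa2 from -0.0354 to 0.21, Foxa3 from -0.12 to 0.40 and Onecut2 from -0.79 to 0.32. After 5-FU the same comparison gave -0.0461 to 0.20 for Nkx2-1, -0.34 to 0.48 for Foxa3 and -0.40 to 0.0838 for Gata6. The difference between responses ran from -0.19 to 0.0612 for Nkx2-1, -0.49 to 0.33 for Foxa3, -0.90 to 0.22 for Onecut2, -0.0832 to 0.36 for Sox9 and -0.27 to 0.21 for Gata6. The averaged contrast ran from -0.20 to 0.0007 for Foxa1, -0.0143 to 0.12 for Foxa2 and -0.10 to 0.46 for Onecut2.

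Genes called in all moved from 2489 in LGR5- cells to 1282 with only the libraries compared and to 1562 to 1647 without 3 single libraries. In LGR5+ cells they moved from 2590 to 4045 with only the libraries compared, 4448 without both LGR5- replicates 3 and 1373 to 1586 without 3 single libraries. Between populations after 5-FU, 0 became 11 with no filter and 79 with DESeq2. Depth allows Hnf4a up to 3 reads in each of the 11 libraries with none, and 3 libraries a group with a biological coefficient of variation of 26.6% limit the rest.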

Other observations

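Nkx2-9 also had a higher mean in LGR5+ than in LGR5- cells before treatment, without passing the test. Its reads numbered 50, 43 and 49 in untreated LGR5- and 64, 85 and 82 in untreated LGR5+ libraries. The log2 fold change was 0.77 (SE 0.22; edgeR, unadjusted P = 0.00363, adjusted P = 1.0). In this comparison 1.32% of all genes had an unadjusted P under 0.05 and 0% passed after adjustment. After 5-FU the same comparison gave 0.42 (SE 0.20; adjusted P = 0.388).

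Gm26973, the gene antisense to Nkx2-1, went the other way from its neighbour in mean level. It stood at 22.7 ± 6.58 CPM in untreated LGR5-, 21.7 ± 4.26 CPM in untreated LGR5+, 18.6 ± 2.25 CPM in LGR5- after 5-FU and 15.7 ± 1.07 CPM in LGR5+ after 5-FU (SD, n = 3). Its response passed the edgeR test in neither population (-0.29, SE 0.21, adjusted P = 0.409, and -0.47, SE 0.21, adjusted P = 0.16).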
